A study of Homo sapiens with 12 samples.

Results

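The expression of 56 genes that build ribosomes was followed in T47D cells exposed to estradiol, with or without ectopic HOXB13. The genes came from a given list of nucleolar proteins, rRNA processing factors and RNA polymerase I subunits and factors. All 56 were found among the 55882 gene symbols of the count table, and all 56 passed the filter on low counts that left 14799 genes for testing. T47D cells are an established line from a human luminal breast cancer and carry the estrogen receptor. HOXB13 is a homeobox transcription factor. The 4 groups, of 3 libraries each, were T47D-HOXB13 cells in 2 nM estradiol, T47D-HOXB13 cells in the ethanol vehicle, control T47D cells in 2 nM estradiol and control T47D cells in vehicle, all sampled after 24 h of treatment. All groups had first spent 72 h in phenol-free medium with 10% charcoal-stripped serum, in which steroid hormones are depleted. The control cells are called wild type or normal in the labels, which give no empty vector, no promoter for the HOXB13 construct and no number of clones.

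Ribosomes are assembled in the nucleolus. RNA polymerase I, with factors such as UBTF and RRN3, transcribes the rRNA precursor there, and small nucleolar ribonucleoproteins (snoRNPs) methylate or pseudouridylate it. Assembly factors then cut and fold the precursor into the 40S and 60S subunits. In estrogen receptor-positive breast cancer cells estradiol is a mitogen, and MYC, a transcription factor known to induce ribosome biogenesis genes, is a known estrogen-induced gene.

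The libraries held 17679824 to 21385996 counts each. Counts of the 56 genes ran from 56 for PPAN to 23004 for NPM1 in a single library. HOXB13 was at 5.84, 4.79 and 5.25 CPM (read counts scaled to the size of the library) in HOXB13 cells in estradiol, against 0, 0 and 0 CPM in control cells in estradiol. It was at 5.56, 5.60 and 5.65 CPM in HOXB13 cells in vehicle, against 0.1003, 0 and 0.0522 CPM in control cells in vehicle. All 8 luminal epithelial markers were detected in every library, and among 13 markers of other cell types CDH5 and HBB were at 0 in all 12. The 4 libraries numbered 2, one in each group, stood apart from the other 8 on the second principal component (17.8% of the variance), so the counts over all 56 genes are also given without them. What a number marks, and whether each library was a culture of its own, is not in the labels, so the p-values rest on the spread among these libraries, which could be technical.

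Genes of ribosome biogenesis were higher in estradiol than in vehicle in cells of both genotypes. Averaged over the genotypes, 41 of 56 rose, 0 fell and 15 did not pass the threshold (edgeR's quasi-likelihood test, Benjamini-Hochberg adjusted p under 0.05 over all tested genes). Of all tested genes, 14.6% were called higher and 13.5% lower in that comparison. The estimate was above 0 for 56 of 56, against 7225 of 14799 over all tested genes, and the median log2 fold change was 0.40 against -0.01. The size of single responses ran from 0.01 for UBTF to 0.97 for NOP16 on the log2 scale.

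The libraries showed the same without a model. The 56 genes took 0.565 to 0.581% of the counts in HOXB13 cells in estradiol, against 0.423 to 0.452% in HOXB13 cells in vehicle. In control cells they took 0.532 to 0.571% in estradiol, against 0.398 to 0.439% in vehicle. No estradiol library overlapped a vehicle library in this share. For 33 of 56 genes each of the 6 estradiol libraries lay above each of the 6 vehicle libraries, which held for 8.76% of all tested genes, and 0 of 56 lay wholly below (7.07% of all tested genes). In 46 of 56 the estradiol library was higher in each of the 6 equally numbered pairs, against 20.5% of all tested genes, and lower in each of them in 0 of 56 (20.4%). In bulk RNA such values are shares of the reads counted in genes. A change in the make-up of the culture and a change of RNA per cell therefore cannot be told apart.

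In both genotypes the mean mitochondrial share was lower in estradiol, and the summed markers of other cell types ranged higher. Libraries of the 2 treatments overlapped in both measures, and neither difference was tested. Mitochondrial transcripts took 6.15% ± 0.710 of the counts in HOXB13 cells in estradiol and 7.38% ± 1.0 in HOXB13 cells in vehicle, and 6.396% ± 0.661 in control cells in estradiol and 6.95% ± 0.382 in control cells in vehicle (SD, n = 3 each). The 13 other-cell-type markers in the table summed to 94.97 to 103.0 CPM in HOXB13 cells in estradiol and 85.4 to 98.2 CPM in HOXB13 cells in vehicle. In control cells they summed to 89.5 to 96.0 CPM in estradiol and 80.9 to 92.8 CPM in vehicle, with COL1A1 and ACTA2 the main contributors. Their part in the estradiol result was not tested. With the libraries numbered 1 and 3 alone, an alternative chosen after seeing the data, 43 of 56 rose and 0 fell, among them all 41 called with 12 libraries (19.3% of all tested genes were then called higher).

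**Figure D1:**
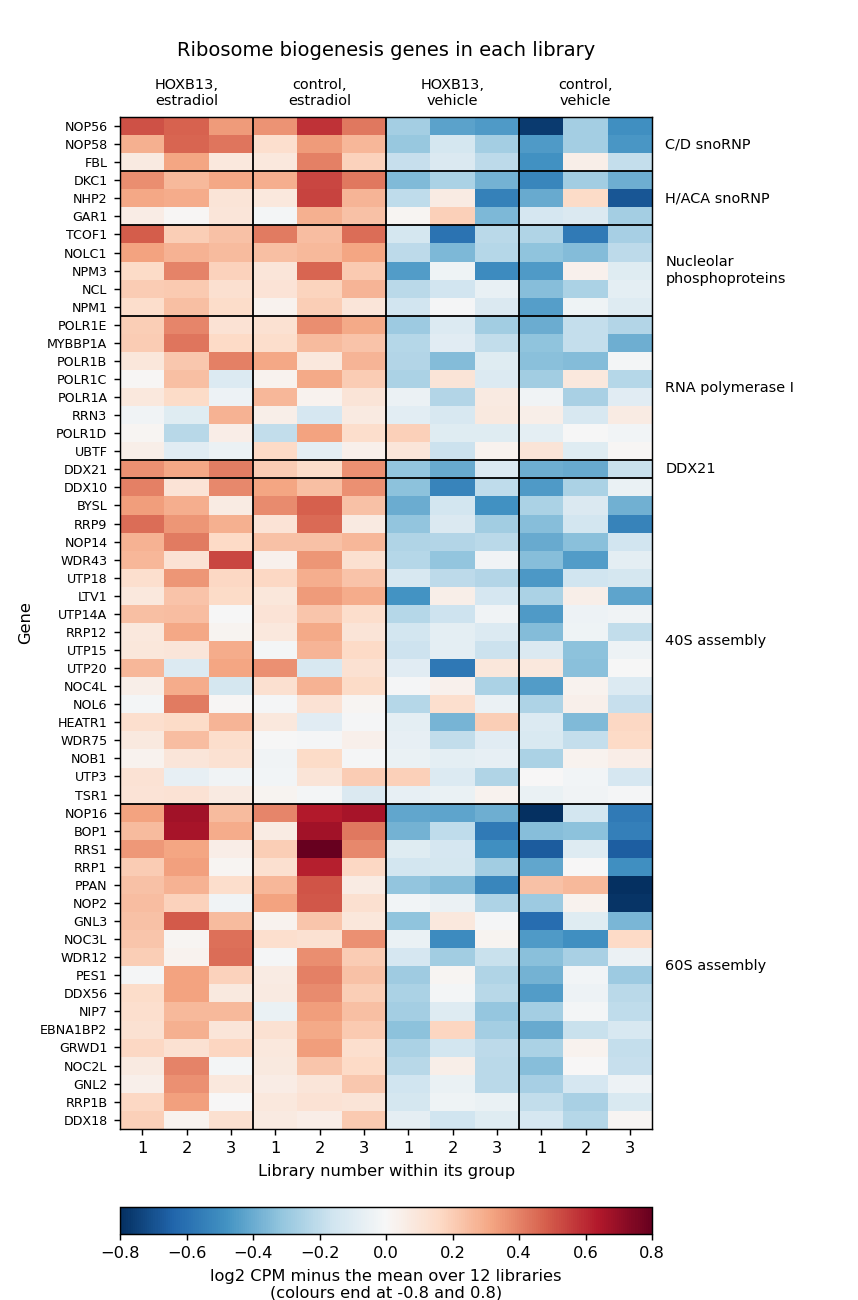
Heat map of the 56 genes (rows, by role) in the 12 libraries (columns, by group), coloured by log2 CPM minus the gene's mean over the 12 libraries, in log2 units. Estradiol libraries are mostly red and vehicle libraries mostly blue in both genotypes, while the rows of UBTF, RRN3, POLR1D and TSR1 show little contrast.

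The C/D box snoRNP, which places methyl groups on rRNA, had the highest median of the roles with more than 1 gene, at 0.64 on the log2 scale, and 3 of its 3 genes rose. NOP56, one of its core scaffold proteins, had 142, 138 and 127 CPM in HOXB13 cells in estradiol, against 82.6, 74.1 and 72.9 CPM in HOXB13 cells in vehicle. In control cells it had 128, 149 and 134 CPM in estradiol, against 58.8, 82.7 and 71.0 CPM in vehicle. The lowest estradiol library was above the highest vehicle library in each genotype and across them. The averaged log2 fold change of NOP56 was 0.89 ± 0.086 (SE; 1.85-fold; edgeR adjusted p = 4.58e-06).

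NOP58, the paired scaffold protein, rose by 0.64 ± 0.074 on the log2 scale (SE; edgeR adjusted p = 1.77e-05). FBL, fibrillarin, is the methyltransferase of the complex. It had 81.5, 96.2 and 82.2 CPM in HOXB13 cells in estradiol, against 68.1, 71.3 and 66.8 CPM in HOXB13 cells in vehicle, and 82.2, 103 and 87.9 CPM in control cells in estradiol, against 55.2, 79.9 and 67.7 CPM in control cells in vehicle. All 6 estradiol libraries lay above all 6 vehicle libraries, by a narrow margin over the second control vehicle library. Its averaged log2 fold change was 0.38 ± 0.094 (SE; edgeR adjusted p = 0.00765).

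In the H/ACA box snoRNP, which converts uridine to pseudouridine, 2 of 3 genes rose. DKC1, dyskerin, is its pseudouridine synthase. It had 67.5, 62.6 and 64.7 CPM in HOXB13 cells in estradiol, against 40.8, 43.8 and 40.1 CPM in HOXB13 cells in vehicle, and 63.8, 75.7 and 69.95 CPM in control cells in estradiol, against 36.3, 43.0 and 39.7 CPM in control cells in vehicle. The groups were far apart, and the averaged log2 fold change was 0.73 ± 0.073 (SE; 1.66-fold; edgeR adjusted p = 5.85e-06). The core protein NHP2 rose by 0.51 ± 0.140 with a wider spread (edgeR adjusted p = 0.0137), and its partner GAR1 had an estimate of 0.22 that did not pass (edgeR adjusted p = 0.138; 0.0484 when the fit also held the library number, here called the replicate block).

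All 5 nucleolar chaperones and phosphoproteins rose. TCOF1, treacle, which binds RNA polymerase I and UBTF, had 179, 147 and 151 CPM in HOXB13 cells in estradiol, against 116, 85.0 and 110.3 CPM in HOXB13 cells in vehicle. In control cells it had 171, 152 and 175 CPM in estradiol, against 109, 86.6 and 107 CPM in vehicle. The library numbered 2 was the lowest in each of the 4 groups, and no estradiol library overlapped a vehicle library. The averaged log2 fold change of TCOF1 was 0.67 ± 0.095 (SE; edgeR adjusted p = 0.000114).

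NOLC1, a chaperone of snoRNPs, rose by 0.56 ± 0.061 and the histone chaperone relative NPM3 by 0.49 ± 0.113 on the log2 scale. NCL, nucleolin, had 639, 643 and 607 CPM in HOXB13 cells in estradiol, against 478, 499 and 533 CPM in HOXB13 cells in vehicle, and 599.8, 629 and 671 CPM in control cells in estradiol, against 439, 467 and 527 CPM in control cells in vehicle. These groups did not overlap, and the averaged log2 fold change was 0.36 ± 0.069 (SE; edgeR adjusted p = 0.00109). NPM1, the abundant nucleolar chaperone nucleophosmin, had 1118, 1199 and 1125 CPM in HOXB13 cells in estradiol, against 910.4, 1009 and 937 CPM in HOXB13 cells in vehicle. In control cells NPM1 had 1032, 1162 and 1087 CPM in estradiol, against 748, 988 and 946 CPM in vehicle, again without overlap. NPM1 had the smallest change of the 5, at 0.28 ± 0.079 (SE; edgeR adjusted p = 0.0167), and 45 pseudogene symbols of NPM1 in the table may share its reads.

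DDX21, an RNA helicase that acts in both rRNA transcription and processing, had 302, 291 and 311 CPM in HOXB13 cells in estradiol, against 189, 177 and 218 CPM in HOXB13 cells in vehicle. In control cells it had 269.95, 259.9 and 302 CPM in estradiol, against 179, 177 and 208 CPM in vehicle. Estradiol and vehicle libraries were separated in both genotypes. The averaged log2 fold change was 0.60 ± 0.075 (SE; edgeR adjusted p = 3.93e-05).

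RNA polymerase I and its factors were divided, with 3 of 8 higher, 0 lower and a median of 0.21 on the log2 scale. With the replicate block 5 of 8 were higher, beside 22.7% of all tested genes. The subunit gene POLR1E rose by 0.50 ± 0.086 (SE; edgeR adjusted p = 0.000541), and MYBBP1A, a nucleolar protein that binds the polymerase, by 0.47 ± 0.073 (edgeR adjusted p = 0.000216). POLR1B, the second-largest subunit, had 41.3, 45.0 and 51.4 CPM in HOXB13 cells in estradiol, against 33.1, 30.5 and 36.4 CPM in HOXB13 cells in vehicle, and 48.2, 41.2 and 46.8 CPM in control cells in estradiol, against 30.7, 30.6 and 38.4 CPM in control cells in vehicle. The groups did not overlap, and the averaged log2 fold change was 0.46 ± 0.090 (SE; edgeR adjusted p = 0.00158).

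POLR1A, the largest subunit, had 99.7, 104.6 and 91.4 CPM in HOXB13 cells in estradiol, against 91.03, 79.98 and 98.97 CPM in HOXB13 cells in vehicle. In control cells POLR1A had 113, 95.7 and 101 CPM in estradiol, against 92.1, 78.6 and 88.2 CPM in vehicle. The groups overlapped in HOXB13 cells and not in control cells. Its averaged estimate of 0.20 did not pass (edgeR adjusted p = 0.0779; 0.00677 with the replicate block), nor did that of POLR1C, a subunit shared with RNA polymerase III, at 0.22 (adjusted p = 0.127 by edgeR; 0.0160 with the block).

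The initiation factors UBTF and RRN3 were among the 4 genes with the smallest estimates. UBTF, which bends rDNA and recruits the polymerase, had 189.6, 172 and 177 CPM in HOXB13 cells in estradiol, against 196, 163 and 187 CPM in HOXB13 cells in vehicle, and 205, 174 and 189 CPM in control cells in estradiol, against 197, 171 and 185 CPM in control cells in vehicle. Groups overlapped fully, and the averaged estimate was 0.01 with a 95% interval of -0.14 to 0.17 (edgeR adjusted p = 0.935). RRN3, which links the polymerase to its promoter complex, had 81.9, 78.01 and 101 CPM in HOXB13 cells in estradiol, against 78.6, 76.4 and 88.1 CPM in HOXB13 cells in vehicle. In control cells RRN3 had 86.0, 75.9 and 87.7 CPM in estradiol, against 86.2, 76.4 and 87.1 CPM in vehicle. Its averaged estimate was 0.05 with an interval of -0.13 to 0.23 (edgeR adjusted p = 0.692).

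POLR1D, the other subunit shared with RNA polymerase III, had 36.1, 30.7 and 37.1 CPM in HOXB13 cells in estradiol, against 40.8, 33.5 and 33.5 CPM in HOXB13 cells in vehicle, and 31.3, 44.7 and 39.4 CPM in control cells in estradiol, against 33.9, 35.7 and 35.3 CPM in control cells in vehicle. The groups overlapped in both genotypes. The averaged estimate was 0.04, with an interval of -0.17 to 0.25 (edgeR adjusted p = 0.793). For UBTF, RRN3 and POLR1D the sign of the estimate turned when single libraries were left out. The upper bounds of the 3 intervals lie below the estimates for POLR1B, POLR1E and MYBBP1A, but the differences between genes were not tested.

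**Figure D2:**
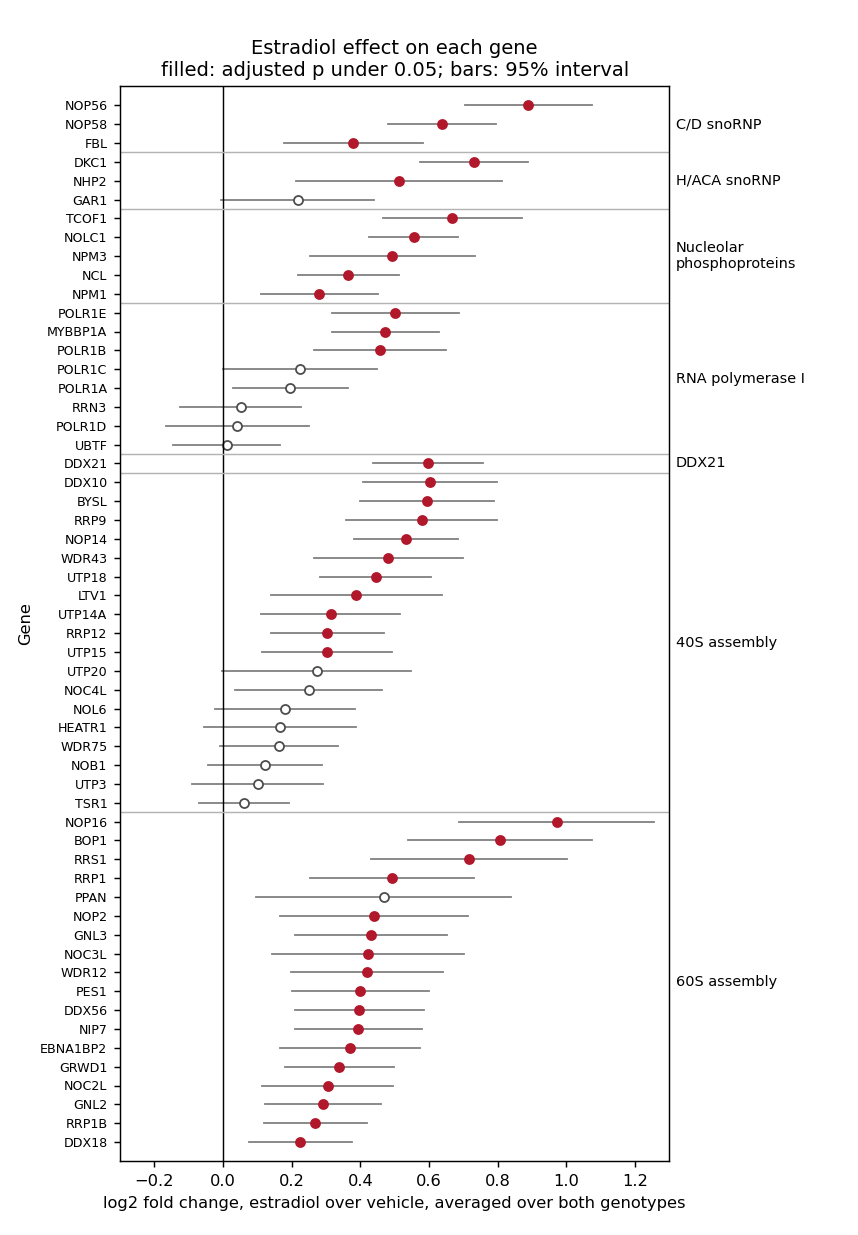
Averaged estradiol effect of each of the 56 genes (log2 fold change, estradiol over vehicle, horizontal axis) with 95% intervals, grouped by role. The points run from 0.01 for UBTF to 0.97 for NOP16, and filled points mark the 41 genes with an adjusted p under 0.05.

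In the assembly of the 40S subunit, 10 of 18 genes rose and 0 fell, with a median log2 fold change of 0.30. The largest changes were those of the helicase DDX10 at 0.60 ± 0.091, BYSL (bystin) at 0.60 ± 0.091, RRP9, a protein of the U3 snoRNP, at 0.58 ± 0.103, and NOP14 at 0.53 ± 0.071 (SE). BYSL had 35.6, 34.5 and 29.5 CPM in HOXB13 cells in estradiol, against 21.4, 25.5 and 20.1 CPM in HOXB13 cells in vehicle, and 36.6, 39.4 and 33.3 CPM in control cells in estradiol, against 23.7, 25.96 and 21.6 CPM in control cells in vehicle. No estradiol library of BYSL fell within the vehicle range (edgeR adjusted p = 0.000215).

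The other 6 genes that rose (WDR43, UTP18, LTV1, UTP14A, RRP12 and UTP15) had values of 0.30 to 0.48. The 8 that did not pass were UTP20, HEATR1, NOC4L, NOL6, WDR75, NOB1, the endonuclease that finishes 18S rRNA, UTP3 and TSR1, with estimates of 0.06 to 0.27. UTP20, a large scaffold protein of the small subunit processome, had 66.3, 50.97 and 68.4 CPM in HOXB13 cells in estradiol, against 51.6, 37.0 and 58.6 CPM in HOXB13 cells in vehicle, and 71.0, 50.4 and 59.96 CPM in control cells in estradiol, against 58.3, 43.6 and 54.9 CPM in control cells in vehicle. The library numbered 2 was again the lowest of each group, and within each number UTP20 was higher in estradiol. Its averaged estimate was 0.27 ± 0.128 (SE; edgeR adjusted p = 0.132). With the replicate block the adjusted p was 0.000499, and with libraries numbered 1 and 3 alone it was 0.0116.

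HEATR1, which is also needed for rRNA transcription, had 105, 106 and 115 CPM in HOXB13 cells in estradiol, against 90.6, 73.8 and 109 CPM in HOXB13 cells in vehicle. In control cells HEATR1 had 101, 89.9 and 94.9 CPM in estradiol, against 88.7, 75.0 and 107 CPM in vehicle. The groups overlapped in both genotypes, and the averaged estimate was 0.17 ± 0.104 (SE; edgeR adjusted p = 0.261; 0.0188 with the block). TSR1, a late-acting factor of the pre-40S particle, had 81.6, 81.8 and 79.4 CPM in HOXB13 cells in estradiol, against 72.1, 72.7 and 77.0 CPM in HOXB13 cells in vehicle. In control cells TSR1 had 76.7, 74.7 and 69.7 CPM in estradiol, against 72.9, 74.2 and 75.1 CPM in vehicle. It was separated in HOXB13 cells and overlapped in control cells, and its averaged estimate was 0.06 with an interval of -0.07 to 0.19 (edgeR adjusted p = 0.497).

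In the assembly of the 60S subunit, 17 of 18 genes rose and 0 fell, with a median of 0.41. NOP16, a nucleolar protein whose yeast counterpart acts in 60S assembly, had 18.9, 24.1 and 17.9 CPM in HOXB13 cells in estradiol, against 11.3, 11.2 and 11.5 CPM in HOXB13 cells in vehicle, and 19.8, 23.4 and 23.9 CPM in control cells in estradiol, against 7.52, 13.6 and 10.1 CPM in control cells in vehicle. The groups did not overlap. NOP16 had the highest estimate of the 56 genes, at 0.97 ± 0.133 (SE; 1.96-fold; edgeR adjusted p = 8.04e-05).

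BOP1, PES1 and WDR12 form the PeBoW complex, which processes the rRNA of the large subunit, and all 3 rose. BOP1 had 14.4, 19.2 and 14.9 CPM in HOXB13 cells in estradiol, against 9.28, 10.5 and 8.16 CPM in HOXB13 cells in vehicle, and 12.7, 19.4 and 16.3 CPM in control cells in estradiol, against 9.53, 9.63 and 8.25 CPM in control cells in vehicle. The groups were separated, and the averaged log2 fold change of BOP1 was 0.81 ± 0.125 (SE; 1.75-fold; edgeR adjusted p = 0.000241). PES1 had 86.2, 108 and 98.4 CPM in HOXB13 cells in estradiol, against 71.1, 87.3 and 73.4 CPM in HOXB13 cells in vehicle. In control cells PES1 had 90.6, 114 and 102 CPM in estradiol, against 66.6, 85.2 and 70.6 CPM in vehicle. PES1 was separated in control cells and overlapped in HOXB13 cells, where the second vehicle library exceeded the first estradiol library. The averaged log2 fold change was 0.40 ± 0.093 for PES1 and 0.42 ± 0.103 for WDR12 (SE; edgeR adjusted p = 0.00516 for PES1 and 0.00734 for WDR12).

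RRS1, whose yeast counterpart helps to bring the 5S particle into the pre-60S subunit, rose by 0.72 ± 0.134, and GNL3, the nucleolar GTPase nucleostemin, by 0.43 ± 0.103 (SE; edgeR adjusted p = 0.00102 for RRS1 and 0.00602 for GNL3). A further 10 genes (RRP1, NOP2, NOC3L, DDX56, NIP7, EBNA1BP2, GRWD1, NOC2L, GNL2 and RRP1B) rose by 0.27 to 0.49, among them the rRNA methyltransferase NOP2 at 0.44 ± 0.128. The smallest change to pass was that of the helicase DDX18, at 0.23 ± 0.070. PPAN did not pass, with an estimate of 0.47 ± 0.173 (edgeR adjusted p = 0.0577; 0.00759 with the block). It had 6.06, 6.25 and 5.69 CPM in HOXB13 cells in estradiol, against 4.12, 4.01 and 3.56 CPM in HOXB13 cells in vehicle, and 6.202, 7.33 and 5.38 CPM in control cells in estradiol, against 6.07, 6.18 and 2.92 CPM in control cells in vehicle. PPAN was separated in HOXB13 cells, and in control cells only the third vehicle library was low. Its exons overlap those of a read-through transcript with a neighbouring gene.

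**Figure D3:**
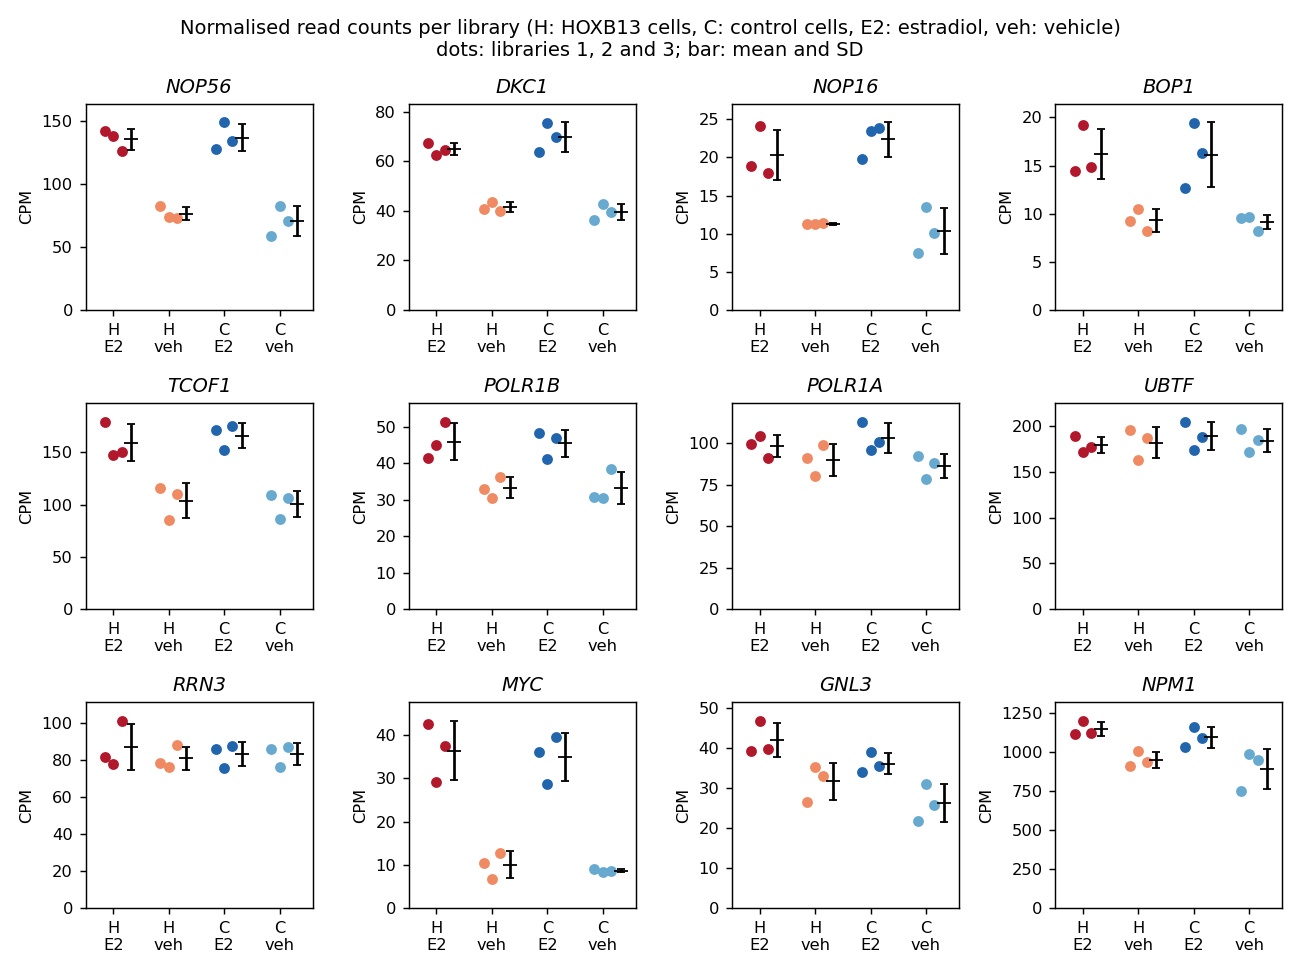
Levels in CPM (vertical axes, from 0) of selected genes in the 4 groups, with a point for each library and the mean and SD over 3 libraries. NOP56, DKC1 and NOP16 stand clearly higher in the estradiol groups, and UBTF and RRN3 do not.

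Tested within each genotype, fewer genes passed. In HOXB13 cells 21 of 56 rose and 0 fell (7.22% of all tested genes were called higher and 6.38% lower), with a median log2 fold change of 0.34. In control cells 27 of 56 rose and 0 fell (8.65% of all tested genes were called higher and 6.72% lower), with a median of 0.42. With the replicate block, 43 rose in HOXB13 cells (15.5% of all tested genes) and 45 in control cells (17.5%). In the libraries numbered 1 and 3 alone, 29 rose in HOXB13 cells and 33 in control cells, against 11.7% and 12.9% of all tested genes. The count in control cells was 15 without the first vehicle library and 17 without the second estradiol library, and in HOXB13 cells it was 12 without the first vehicle library.

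Of the 56 genes, 18 passed in both genotypes. Another 3 passed in HOXB13 cells but not control cells, and 9 in control cells but not HOXB13 cells. The other 26 passed in neither, of which 11 passed in the average. The same split was not counted over all tested genes. NOP56 rose by 0.83 ± 0.122 in HOXB13 cells and by 0.95 ± 0.122 in control cells, DKC1 by 0.64 ± 0.104 and 0.82 ± 0.104, and BOP1 by 0.80 ± 0.177 and 0.82 ± 0.177, on the log2 scale in the same order of cells (SE). Over the 56 genes the responses of the 2 genotypes, which share no library, had a Pearson correlation of 0.81 across genes, which are not independent. The estimate was larger in control cells for 37 of 56. It was larger in HOXB13 cells for 19 of 56, beside 48.9% of all tested genes.

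The difference between the responses was itself tested, and 0 of 56 genes passed (edgeR's quasi-likelihood test; DESeq2, limma-voom and the fit to libraries numbered 1 and 3 also called 0). At an unadjusted p under 0.05 there were 0 of 56, beside 1.48% of all tested genes. Of all tested genes 0% were called in either direction. The estimates, as the HOXB13 response minus the control response, had a median of -0.04 and ran from -0.48 for RRS1 to 0.31 for PPAN. RRS1 had 60.2, 59.1 and 49.2 CPM in HOXB13 cells in estradiol and 44.3, 43.1 and 33.7 CPM in HOXB13 cells in vehicle, and 54.3, 85.7 and 61.9 CPM in control cells in estradiol and 29.8, 44.0 and 29.96 CPM in control cells in vehicle. The median 95% interval reached 0.39 to each side of the estimate, and that of RRS1 ran from -1.05 to 0.09. Differences inside the interval of a gene are compatible with these values. The smallest difference detectable at this number of libraries was not worked out.

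**Figure D4:**
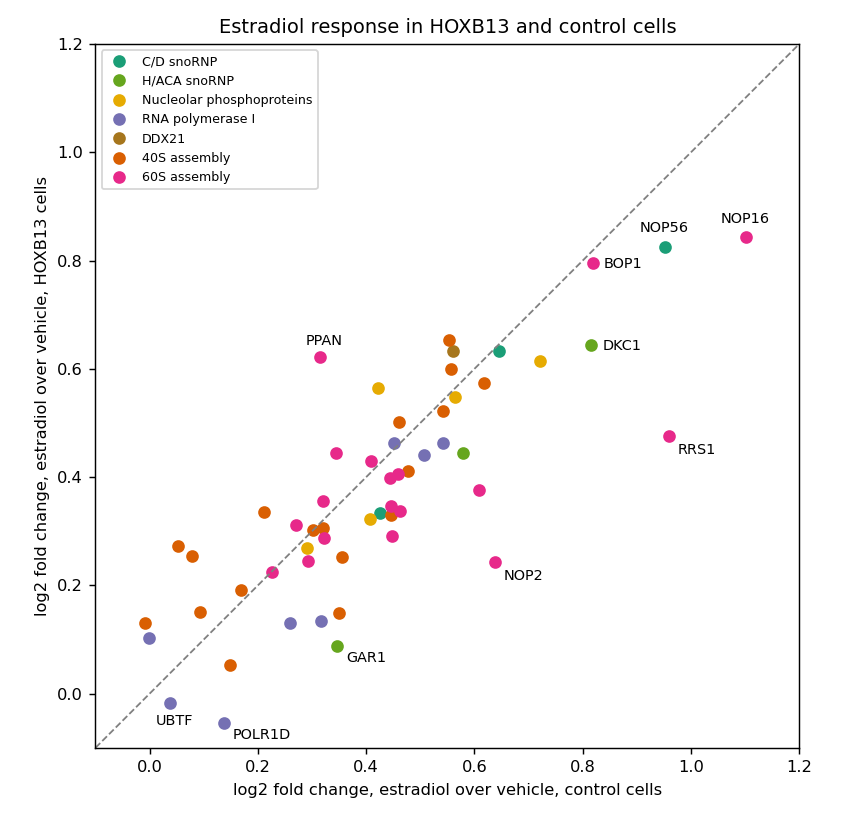
Estradiol response of each gene in HOXB13 cells against that in control cells (log2 fold change over vehicle on both axes), with a line of equal response. The 56 points scatter around the line, with more below it, and have Pearson r = 0.81 across genes.

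HOXB13 against control cells gave no called gene of ribosome biogenesis. In estradiol 0 of 56 passed (0.0135% of all tested genes were called higher and 0% lower), and in vehicle 0 of 56 passed (0.0203% higher and 0% lower), by edgeR's quasi-likelihood test. Averaged over treatments 0 of 56 passed, beside 0.0878% of all tested genes higher and 0.0608% lower. At an unadjusted p under 0.05 there were 0 of 56 in estradiol, 0 of 56 in vehicle and 1 of 56 in the average, beside 3.30%, 3.78% and 6.05% of all tested genes in the same order. The libraries numbered 1 and 3 alone also gave 0 of 56 in each of the 3, and DESeq2 and limma-voom called 0 in all 3. The median log2 fold changes were -0.01 in estradiol, 0.05 in vehicle and 0.01 in the average. The averaged estimates ran from -0.22 for PPAN to 0.24 for GNL3, with a median interval of 0.19 to each side.

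The gene with the unadjusted p under 0.05 was GNL3. It had 39.2, 46.7 and 39.8 CPM in HOXB13 cells in estradiol, against 33.9, 38.9 and 35.5 CPM in control cells in estradiol. In vehicle it had 26.6, 35.3 and 33.1 CPM in HOXB13 cells, against 21.8, 31.1 and 25.8 CPM in control cells. Within each number and treatment the HOXB13 library was the higher. In estradiol the groups did not overlap, and in vehicle the second control library lay above the first HOXB13 library. GNL3 was picked by its p in this same comparison, so this ordering of its libraries adds no support. How many of all tested genes share such an ordering was not counted. The averaged log2 fold change was 0.24 ± 0.103 (SE; 0.745 as edgeR adjusted p), and with the replicate block the adjusted p was 0.0393, where 1.07% of all tested genes were called higher and 1.54% lower. The next genes by p were NOP58, at 0.15 ± 0.073, and RRP1B, at 0.09 ± 0.070, neither of which passed in either fit.

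Within equal library numbers the median of HOXB13 minus control over the 56 genes was 0.08, -0.02 and -0.08 in estradiol and 0.11, -0.00 and 0.01 in vehicle, on the log2 scale. The HOXB13 library was the higher for 36, 25 and 20 of the 56 genes in estradiol and for 45, 26 and 28 in vehicle, so no direction was shared by the pairs. For estradiol minus vehicle the same medians were 0.36, 0.41 and 0.36 in HOXB13 cells, where 53, 54 and 54 of 56 were higher. In control cells they were 0.45, 0.41 and 0.36, where 53, 55 and 52 of 56 genes were higher. Over all tested genes the medians of these estradiol pairs lay between -0.0147 and 0.00245. How many of all tested genes were higher in a pair, of either kind, was not counted.

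Genes of neighbouring steps outside the 56 were counted in the averaged estradiol comparison. Of 88 other ribosome assembly factors 40 rose and 0 fell, with a median log2 fold change of 0.24, led by CCDC86 at 0.80, URB2 at 0.80 and MRTO4 at 0.73. With the replicate block 53 of the 88 rose and 2 fell, PHF6 at -0.25 and the gene listed as GLTSCR2 at -0.15. Of 78 tested cytosolic ribosomal protein genes 27 rose and 0 fell, with a median of 0.28, and the estimate was above 0 for 78 of 78. With the block 71 of the 78 rose (22.7% of all tested genes did so in that fit). The largest called changes there were those of RPL17 at 0.52, RPS26 at 0.49 and RPL35 at 0.47, and ribosomal protein genes have many processed copies that may share their reads. Of 9 other RNA polymerase I subunits and factors 1 passed, the subunit gene listed as CD3EAP, at 0.70, and their median was 0.12. With the block ZNRD1, at 0.36, rose as well and BAZ2A, at -0.25, fell. In the averaged HOXB13 comparison 0 genes of these 3 lists were called by edgeR without the block. With it 1 of the 88 other assembly factors, SBDS, was lower, at -0.18, beside 1.54% of all tested genes.

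MYC, which is not one of the 56 genes, had 42.6, 29.03 and 37.4 CPM in HOXB13 cells in estradiol, against 10.6, 6.81 and 12.9 CPM in HOXB13 cells in vehicle. In control cells it had 36.1, 28.7 and 39.5 CPM in estradiol, against 9.03, 8.48 and 8.56 CPM in vehicle. MYC was separated by treatment in both genotypes, and its averaged log2 fold change was 1.92 ± 0.148 (SE; 3.80-fold; edgeR adjusted p = 5.34e-07), above that of every one of the 56 genes.

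Promoter sequence was examined because the MYC protein is known to bind the E-box CACGTG. RefSeq promoters (GRCh38.p14, from 250 bases before to 50 bases after the start site) matched 47 of 56 genes. The genes without a match were all among those that rose. Only the first promoter listed for a gene was used. The letters CACGTG, which read the same on both strands, occurred in 16 of the 47 (34.04%), in 992 of 9910 promoters of tested genes (10.0%) and in 2030 of all 27305 promoters (7.43%). They were in 14 of 32 promoters of genes that rose and in 2 of 15 of genes that did not pass. Those 2, UTP20 and NOL6, passed with the replicate block. The windows of NOP16, NOP56 and DKC1, with averaged changes of 0.97, 0.89 and 0.73, held none. Any part of MYC in the estradiol result was not tested. The median averaged log2 fold change was 0.41 with the motif and 0.34 without it. The palindromic estrogen response element was in 0 of 47 promoters and in 0.0659% of all, and CCAATAAA, a HOXB13-type motif, was in 0 of 47 and in 0.992% of all, each searched on both strands. A match is a description of the letters and not a bound site, and these letters can lie outside the window.

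Promoters are shown for 2 genes that rose and hold the motif (FBL and PES1), for 1 gene that holds it and did not pass (UTP20), and for NOP56, which rose and has none in its window. Each is written 5′ to 3′ on the strand of its gene, with the E-box in capitals. FBL is on the minus strand at chr19:39846330-39846629, PES1 on the minus strand at chr22:30591861-30592160, UTP20 on the plus strand at chr12:101279855-101280154 and NOP56 on the plus strand at chr20:2652382-2652681, all in GRCh38.p14. With the start site counted as base 1, the motif begins at base 7 in FBL and at base 14 in PES1. In UTP20 it begins 10 bases before the start site.
FBL: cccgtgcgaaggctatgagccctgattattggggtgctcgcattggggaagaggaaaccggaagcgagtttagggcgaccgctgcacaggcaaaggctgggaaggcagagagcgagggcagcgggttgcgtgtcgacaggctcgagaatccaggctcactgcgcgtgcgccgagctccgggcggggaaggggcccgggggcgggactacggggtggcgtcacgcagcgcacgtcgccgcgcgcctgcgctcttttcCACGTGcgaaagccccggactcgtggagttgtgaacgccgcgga
PES1: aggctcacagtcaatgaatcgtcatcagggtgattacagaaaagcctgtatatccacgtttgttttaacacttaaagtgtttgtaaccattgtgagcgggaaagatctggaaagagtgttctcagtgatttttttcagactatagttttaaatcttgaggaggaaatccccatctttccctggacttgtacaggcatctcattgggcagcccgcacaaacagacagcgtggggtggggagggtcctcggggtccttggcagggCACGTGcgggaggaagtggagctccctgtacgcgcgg
UTP20: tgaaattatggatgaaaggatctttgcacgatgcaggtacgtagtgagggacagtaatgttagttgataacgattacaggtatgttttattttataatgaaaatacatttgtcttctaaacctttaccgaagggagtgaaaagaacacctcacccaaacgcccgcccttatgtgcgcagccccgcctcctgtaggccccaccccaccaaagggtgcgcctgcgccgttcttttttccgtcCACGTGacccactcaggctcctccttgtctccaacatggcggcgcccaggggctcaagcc
NOP56: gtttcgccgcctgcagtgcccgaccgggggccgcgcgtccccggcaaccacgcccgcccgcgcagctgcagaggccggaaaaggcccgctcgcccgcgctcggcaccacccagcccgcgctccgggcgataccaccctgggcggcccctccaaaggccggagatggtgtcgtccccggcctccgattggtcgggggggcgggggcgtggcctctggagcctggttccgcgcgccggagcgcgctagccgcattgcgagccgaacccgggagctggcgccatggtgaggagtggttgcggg

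How reads were assigned bears on single genes. In the GENCODE v29 annotation, exons of 8 of the 56 genes overlap another gene on the same strand and those of 18 overlap one on the opposite strand, among them DKC1 and NOP56 (small RNA genes on the same strand) and NOP16, TSR1, GNL3 and UBTF (opposite strand). Whether strand was used in counting is not given in the sources used here, so reads of such neighbours cannot be told apart. RRN3 has 3 pseudogene symbols in the table, PES1 2 and NCL 2.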

How the data were processed

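RNA was sequenced from 12 T47D libraries, 3 in each of 4 groups. The authors deposited unnormalized whole-number counts by gene symbol, with no coordinates. FastQC, STAR, Picard and HTSeq, and the builds GRCh37 and hg19, are named in the submitters' processing notes. Tool versions and strand use were not given in the sources used here.

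Genes were kept by filterByExpr (minimum count 10, minimum total count 15). Tests used edgeR 4.0.16 (R 4.3.3), with group means over all 12 libraries, TMM factors and the robust quasi-likelihood F test, adjusted by Benjamini-Hochberg over all tested genes at 0.05. The procedure was tested on simulated data with 200 changed genes. CPM use TMM-scaled library sizes, and log2 CPM a prior count of 2. The 7 comparisons were estradiol against vehicle and HOXB13 against control, each in both backgrounds and averaged, and the difference between responses. Averages weight both groups equally. An exact permutation test of 3 against 3 libraries cannot go below 0.1 and was not used. Alternatives, whose effect the closing section gives, were RLE size factors, no filter, DESeq2 1.42.0, limma-voom (limma 3.58.1), only the 6 libraries compared, each library left out, the replicate number as a block and, added after seeing the data, libraries numbered 1 and 3 only.

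Equally numbered libraries of the 2 groups of a comparison deviated together from their group means across genes, with correlations of 0.184 to 0.354 (estradiol, HOXB13 cells), 0.132 to 0.457 (estradiol, control cells), 0.123 to 0.311 (HOXB13, estradiol) and 0.125 to 0.409 (HOXB13, vehicle), all above 0.1, so blocked values are given beside results whose call they change or whose count they move by over 1.5 times. The averages are made of these pairs. Over all 18 pairs the lowest was 0.0926, so the difference between responses was not treated as paired. The 36 differently numbered pairs ran from -0.354 to 0.255. The highest was HOXB13 vehicle library 3 with control estradiol library 1. In those groups the equal numbers 1 and 3 gave 0.0956 and 0.145. The values therefore set number 2 apart but do not show that numbers 1 and 3 mark pairs.

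The 56 genes, their roles and the other lists were chosen with earlier results of these data known, so no test of a list was made. Values per library are given for the genes with the 4 largest and 4 smallest averaged estradiol changes, the 3 smallest p-values of the averaged HOXB13 comparison and examples set for each role. BYSL, DDX21, PPAN and RRS1 were added after their values were seen, as were genes outside the 56 named for their call with the block.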

Additional observations from a re-analysis of the deposited data

How the results depend on the processing

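The count of 41 genes that rose in the averaged estradiol comparison was also 41 with RLE factors and with limma-voom, 42 with no filter and with DESeq2, 49 with the replicate block, and 38 to 44 when single libraries were left out, with 0 lower in each. Of the 41, 35 passed in every fit without a library, and UTP14A, UTP15, LTV1, DDX18, NOC2L and NOC3L did not. In HOXB13 cells the count was 43 with the replicate block and 12 to 19 without single libraries. In control cells it was 45 with the block, 17 when only the 6 libraries compared were fitted and 15 to 33 without single libraries. In the averaged HOXB13 comparison it was 1 with the block (GNL3). The block added 8 genes to the averaged estradiol calls and ended none of the 41. These were GAR1, POLR1A, POLR1C, UTP20, HEATR1 and PPAN, given above, and NOL6 and NOC4L (edgeR adjusted p = 0.00878 and 0.00362 with the block). Median log2 fold changes without single libraries were 0.31 to 0.40 in HOXB13 cells, 0.35 to 0.49 in control cells and 0.36 to 0.43 averaged.

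Over all tested genes, edgeR called 2154 higher and 2004 lower in the averaged estradiol comparison, against 3362 and 3369 with the block. In the averaged HOXB13 comparison it called 13 higher and 9 lower, against 158 and 228 with the block, 71 and 70 without the filter, 65 and 91 in the libraries numbered 1 and 3, and 50 and 54 by DESeq2.

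The estimates of RRN3, POLR1D and UBTF, which passed in no fit, turned sign, with ranges of -0.00846 to 0.0887, -0.0181 to 0.108 and -0.0239 to 0.0406 without single libraries, and UBTF was at -0.0039 in libraries numbered 1 and 3. The cause was not tested. With 3 libraries a group the median 95% interval of a gene reached 0.28 to each side in HOXB13 cells and 0.27 in control cells.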

Other observations

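Other RNA polymerases and the RNA exosome, which trims and degrades rRNA precursors, were counted in the averaged estradiol comparison by edgeR. Of 15 exosome genes 6 rose and 0 fell, with a median log2 fold change of 0.23, led by EXOSC5 at 0.997, EXOSC2 at 0.74 and EXOSC9 at 0.56. With the replicate number as a block 8 of the 15 rose and 1 fell, MPHOSPH6 at -0.30. Of 11 RNA polymerase III subunit genes 3 rose, 0 fell and 8 did not pass, with a median of 0.19 on the log2 scale. Among the 3 were POLR3G at 0.68 and POLR3K at 0.63. With the block 6 of the 11 rose and 0 fell. Of 7 RNA polymerase II subunit genes 2 rose and 1 fell, with POLR2D at 0.44, POLR2G at 0.43 and the largest subunit, POLR2A, at -0.30. With the block POLR2I, at 0.43, and POLR2J, at 0.19, rose as well. In the same comparison without the block 14.6% of all tested genes were called higher and 13.5% lower. With the block 22.7% were called higher, and 3369 of 14799 lower.

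Among 8 luminal epithelial markers, 1 rose and 3 fell in the averaged estradiol comparison. The keratin KRT8 was at 0.35, the cadherin CDH1 at -0.50, and the transcription factors GATA3 and FOXA1 at -0.37 and -0.35 on the log2 scale. With the block ESR1, at -0.16, fell as well. Of 6 tested markers of other cell types 0 were called by edgeR without the block, and with it ACTA2 was higher, at 0.29, and ADIPOQ lower, at -1.07.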
